A study of Mus musculus with 14 samples.

Results

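The 10 genes described here are the salt-inducible kinases Sik1, Sik2 and Sik3, the transcription factors Crem and Creb1, the coactivators Crtc1, Crtc2 and Crtc3, and the genes Gem and Rgs2, both known as targets of cAMP signalling. They were chosen by name, with earlier results of these data known, among 24465 genes in the RNA count files. Of the 40772 H3K27ac regions in the deposited region table, 69 carry one of their symbols as the gene with the nearest start site. The cells were Y1, a mouse line derived from an adrenocortical tumour. All cells were starved of serum for 48 hours, received 10% fetal bovine serum with or without fibroblast growth factor 2 (FGF-2) at 10 ng/ml, and were harvested 5 hours after that. Every comparison is therefore between serum plus FGF-2 and serum alone, and no library from starved cells was analysed here. RNA was measured in 3 libraries per group by polyA RNA-seq, and the acetylated histone H3 lysine mark H3K27ac, found at active promoters and enhancers, was measured in 2 libraries per group by ChIP-seq. Since Y1 is a single cell line, the libraries are repeats of that line and not separate animals, and the labels do not say whether each came from its own culture.

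CREB1 binds the cAMP response element in DNA and activates transcription when protein kinase A or another kinase phosphorylates it, and CREM is its close relative, of which some forms repress. The CRTC proteins are CREB coactivators: salt-inducible kinases phosphorylate them, and the phosphorylated proteins are bound by 14-3-3 proteins and kept in the cytoplasm. The kinase LKB1 activates the salt-inducible kinases, while protein kinase A restrains them, so that cAMP releases CRTC proteins to the nucleus. Sik1 itself is a CREB target, and in adrenocortical cells the kinase is known as a feedback repressor of steroidogenic genes that corticotropin induces through cAMP.

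RefSeq promoter sequences were at hand for 6 of the 10 genes (Sik2, Sik3, Creb1, Crtc1, Crtc3 and Rgs2). None was at hand for Sik1, Crem, Crtc2 and Gem, so nothing is said of the element in those genes. The window runs from 250 bases before to 50 bases after the start. The full cAMP response element, TGACGTCA, which reads the same on both strands, was in 0 of these 6 windows, against 1.79% of 32851 promoters. For a site this rare, 0 of 6 carries little information. The shorter core, TGACG on one strand or CGTCA on the other (also contained in the full element), was in 3 of the 6, namely Sik2, Sik3 and Rgs2, against 20.8% of all promoters. Below are the 250 bases upstream of 3 starts in the build GRCm38.p6 (mm10), each read 5′ to 3′ along the gene's own strand, with cores in capitals. Sik3 is shown for its 3 cores, at 133, 116 and 57 bases before the start (chr9:46012570-46012819, plus strand). Rgs2 is shown for its pair of cores, at 185 and 67 bases before the start (chr1:144004150-144004399, minus strand). Crtc1 is shown because its start-site H3K27ac region was called higher with FGF-2, and this stretch, which has no capitals, overlaps that region (chr8:70439574-70439823, minus strand). The start used for this Crtc1 stretch lies inside the gene span given below, which reaches to 70439702. Part of the stretch is therefore within that span. A match describes letters only, and binding of CREB was not measured.
Sik3: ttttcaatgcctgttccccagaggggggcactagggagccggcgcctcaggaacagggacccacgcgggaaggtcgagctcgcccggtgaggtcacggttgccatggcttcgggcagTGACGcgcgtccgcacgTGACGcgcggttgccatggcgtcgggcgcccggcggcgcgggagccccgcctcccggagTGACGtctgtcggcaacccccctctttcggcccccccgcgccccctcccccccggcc
Rgs2: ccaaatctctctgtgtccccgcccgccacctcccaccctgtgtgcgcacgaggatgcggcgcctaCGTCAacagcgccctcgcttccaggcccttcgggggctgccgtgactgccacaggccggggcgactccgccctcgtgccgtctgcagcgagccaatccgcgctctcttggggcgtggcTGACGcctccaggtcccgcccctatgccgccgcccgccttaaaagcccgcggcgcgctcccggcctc
Crtc1: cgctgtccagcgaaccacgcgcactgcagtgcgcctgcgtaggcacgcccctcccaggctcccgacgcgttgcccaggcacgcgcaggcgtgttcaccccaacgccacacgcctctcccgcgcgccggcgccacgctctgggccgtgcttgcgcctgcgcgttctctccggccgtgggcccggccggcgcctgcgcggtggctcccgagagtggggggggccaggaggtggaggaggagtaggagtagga

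The RNA of 4 genes was higher with FGF-2 (Sik1, Sik3, Crtc1 and Gem), that of 1 gene, Creb1, was lower, and 3 genes (Sik2, Crem and Crtc3) passed no threshold. Crtc2 and Rgs2 were listed at 0 in all 6 libraries, so 8 of the 10 genes could be tested. The test was edgeR's quasi-likelihood test over 10374 genes with Benjamini-Hochberg adjustment, called at 0.05. FGF-2 moved much of the transcriptome in this test: 22.1% of tested genes were called higher and 24.2% lower, so that 4 and 1 of 8 have to be read against that background. The median log2 fold change of the 8 genes was 0.38, against -0.02 over all genes tested. In 5 of the 8 the 2 groups of libraries did not overlap (4 higher, 1 lower), where 28.1% of all tested genes were apart with FGF-2 higher and 29.4% with FGF-2 lower. All RNA levels below are CPM (read counts scaled to library size) after TMM scaling. They are not corrected for transcript length, so they compare 1 gene between libraries and not 2 genes with each other.

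**Figure D1:**
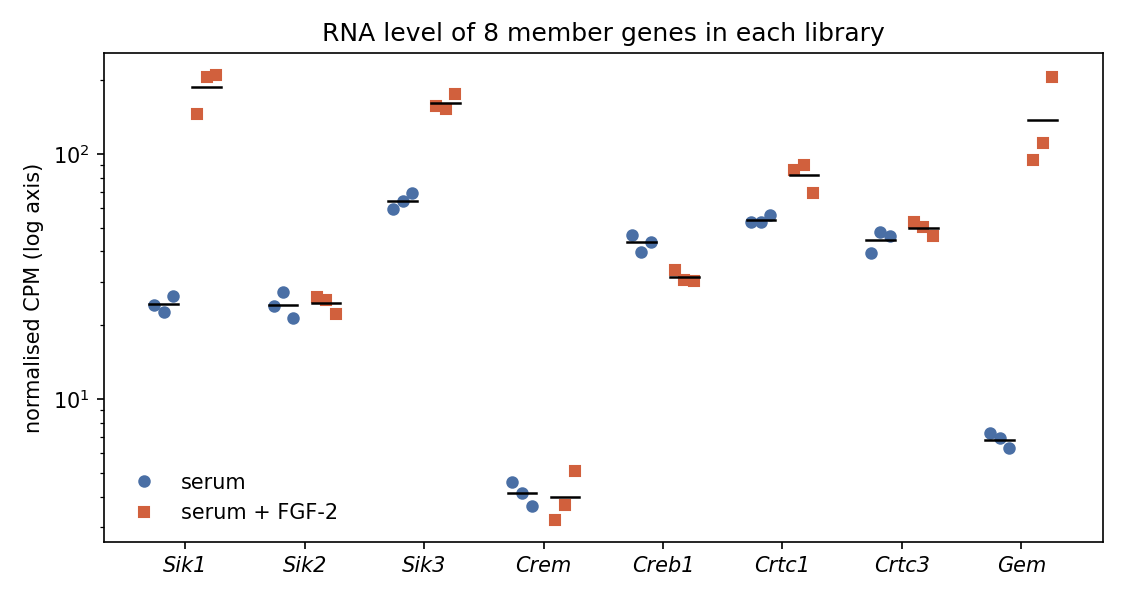
RNA level (CPM, log axis) of the 8 tested genes in each of 3 serum libraries (circles) and 3 serum plus FGF-2 libraries (squares), with horizontal lines at the group means. Sik1, Sik3, Crtc1 and Gem lie higher in every FGF-2 library than in any serum library, Creb1 lies lower, and the groups overlap for Sik2, Crem and Crtc3.

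Among the kinases, Sik1 changed most. Sik1 (chr17:31844248-31855804) stood at 24.1, 22.6 and 26.2 CPM in the serum libraries and at 145, 207 and 209 CPM in the FGF-2 libraries. The groups were far apart, with the lowest FGF-2 library still well above the highest serum library. Its mean went from 24.3 ± 1.84 to 187 ± 36.3 CPM (SD, n = 3 in each group), a fitted log2 fold change of 2.95 ± 0.16 (SE), or 7.71-fold, with an edgeR adjusted p of 5.77e-06. Sik3 (chr9:46012820-46224194), the family member with the longest gene of these 3, was measured at 59.3, 64.4 and 69.4 CPM with serum and at 157, 152 and 175 CPM with FGF-2. It too was higher in every FGF-2 library, and its groups were tight: 64.3 ± 5.05 against 161 ± 12.4 CPM (SD, n = 3), or 2.51-fold, with a log2 fold change of 1.33 ± 0.11 (SE) and an edgeR adjusted p of 2.39e-05.

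Sik2, a kinase also known from fat and liver cells, gave no call. It was at 23.9, 27.2 and 21.4 CPM with serum and at 26.0, 25.3 and 22.3 CPM with FGF-2, and the groups overlapped. The log2 fold change was 0.02 ± 0.13 (SE; edgeR adjusted p = 0.903), and its sign depended on the scaling and on single libraries. Sik2 overlaps the gene Ppp2r1b. Whether the counting used strand is not given in the sources used here, and reads in shared bases may have been assigned to neither gene. The 3 kinases thus had different values under one treatment, with 2 called and 1 not, and the differences between their fold changes were not tested.

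Of the CREB factors, Creb1 fell and Crem was not called. Creb1 (chr1:64532794-64604548), the activator that the CRTC proteins bind, was at 46.8, 39.9 and 43.7 CPM with serum and 33.6, 30.5 and 30.2 CPM with FGF-2. Each FGF-2 library was below each serum library. The mean went from 43.5 ± 3.47 to 31.5 ± 1.88 CPM (SD, n = 3), and the log2 fold change of -0.46 ± 0.11 (SE) had an edgeR adjusted p of 0.00744. Crem was the least abundant of the 8 in counts, with 22 to 48 reads per library. It was at 4.59, 4.15 and 3.65 CPM with serum and 3.22, 3.71 and 5.07 CPM with FGF-2, with overlapping groups and a log2 fold change of -0.10 ± 0.25 (SE; edgeR adjusted p = 0.776). The counts are summed over the gene, so the short repressor ICER, which is made from an internal Crem promoter and is a known cAMP-induced product, cannot be told apart from other Crem RNAs.

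The coactivators gave 1 call in 2 tested genes. Crtc1 (chr8:70382352-70439702) was at 52.6, 52.8 and 56.4 CPM with serum and 85.9, 89.8 and 69.3 CPM with FGF-2. The serum libraries were close together and all lay below the FGF-2 libraries, of which library 3 was the lowest. The mean went from 53.9 ± 2.17 to 81.7 ± 10.9 CPM (SD, n = 3), a 1.52-fold difference with a log2 fold change of 0.60 ± 0.12 (SE) and an edgeR adjusted p of 0.00288. With libraries scaled by their totals alone the Crtc1 call was lost (log2 fold change 0.27, edgeR adjusted p = 0.103). That scaling moves the median of all genes to -0.36, and measured from that median Crtc1 stood at 0.63, as it did after TMM scaling. A change of scaling shifts all genes nearly together, so this match was fixed in advance. It does not tell which scaling is right. Crtc3 was at 39.4, 48.1 and 46.3 CPM with serum and 52.6, 50.2 and 46.4 CPM with FGF-2, groups that overlap, with a log2 fold change of 0.16 ± 0.12 (SE; edgeR adjusted p = 0.278).

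Crtc2 was listed at 0 in every library, although H3K27ac was present at its start in all of them. That promoter region (chr3:90253888-90255435) had a signal of 143 and 104 with serum and 126 and 143 with FGF-2. A 0 in these count files is weak information. Of 5547 genes with a promoter region at least as strong as that of Crtc2, 386 (6.96%) were also at 0 in all 6 libraries, among them Ywhaz, Cltc and Ddx5, genes used by most cells (examples chosen after their values were seen). No fold or absence is therefore read from the Crtc2 value, and which CRTC family member is most abundant in these cells is not given.

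Gem had the largest fold change of the 8 tested genes. Gem (chr4:11704447-11714993) encodes a small RGK-family GTPase that inhibits voltage-gated calcium channels. It was at 7.27, 6.92 and 6.31 CPM in the serum libraries and at 94.7, 110 and 207 CPM in the FGF-2 libraries. The serum libraries barely differed, while FGF-2 library 3 was well above its 2 partners. The means were 6.83 ± 0.485 and 137 ± 60.6 CPM (SD, n = 3), which is 19.8-fold, with a log2 fold change of 4.31 ± 0.34 (SE) and an edgeR adjusted p of 9.92e-05.

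Rgs2, which encodes a regulator that speeds GTP hydrolysis by Gq proteins and is a known cAMP-responsive gene, was at 0 in all 6 RNA libraries. For a gene counted normally, 3 reads, the limit that a count of 0 allows for counting error alone, would be 0.236 to 0.533 CPM on unscaled library totals. Unlike Crtc2, Rgs2 (chr1:143999338-144004149) also had no H3K27ac region under its symbol. The nearest region of any gene was 220858 bases away, and 0 peaks lay within 10 kb of Rgs2 in each of the 4 H3K27ac libraries.

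H3K27ac was called higher at 13 of the 69 member regions and lower at 2. The 13 belong to Sik3 (5), Creb1 (3), Crtc1 (3) and Sik1 (2), and the 2 lower regions to Sik3 and Crtc3. Without FGF-2 library 1 or 2 only 4 and 3 regions were called higher, and 0 or 1 lower with any 1 of the 4 libraries left out. These calls come from limma on log2(signal + 1) over all 40772 regions, at an adjusted p under 0.05, and the share called there was 12.6% higher and 3.73% lower. At an FDR of 0.05 the authors' deposited table holds 9 of the 69 as higher and 0 as lower, against 8.33% and 1.64% of all regions. The libraries of the 2 groups did not overlap at 30 regions with FGF-2 higher and 11 with FGF-2 lower, while 33.6% and 18% of all regions were apart in these directions. Serum library 2 had the lowest summed signal, and its part in these shares was not tested. The median log2 difference of the 69 regions was 0.26, against 0.11 over all regions, and their median signal was 25.7, against 38.2. Distances in bases below run from the start site that the authors' table assigns to a region, and signal is in the units of that table.

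**Figure D2:**
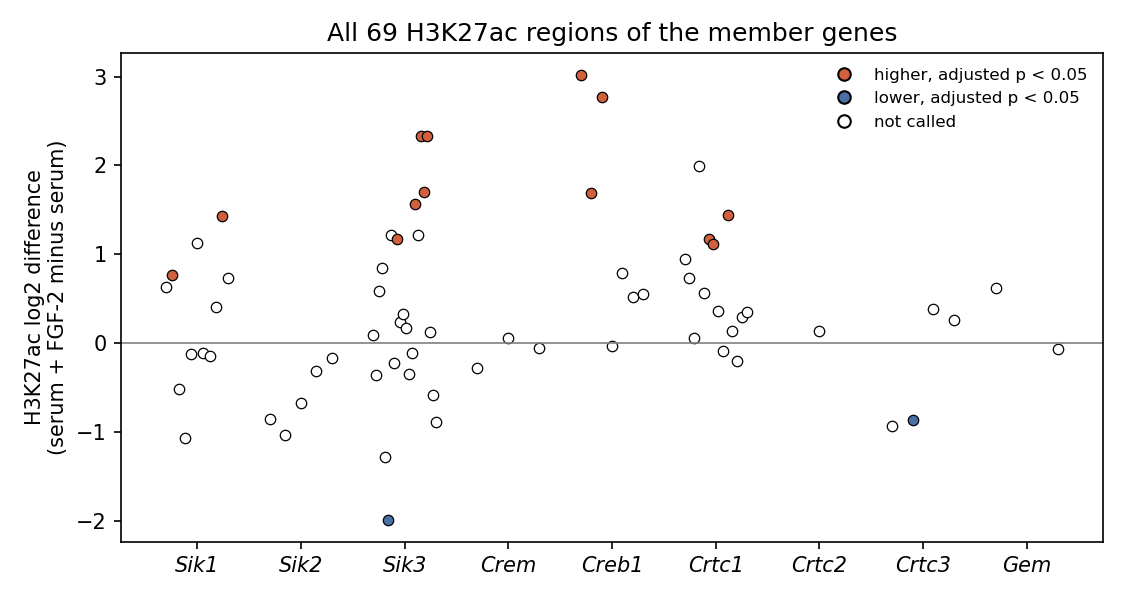
Difference in H3K27ac (log2, serum plus FGF-2 minus serum, limma) at each of the 69 regions, ordered by position within each gene, with filled points for regions called at an adjusted p under 0.05. The 13 higher calls fall on Sik1, Sik3, Creb1 and Crtc1, and the 2 regions of Gem, the gene with the largest RNA difference, are not called.

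At Sik1, the called promoter region was not the one covering the start. The region from 31856025 to 31857453 on chromosome 17, which begins just upstream of the start, had a signal of 60.8 and 47.6 with serum and 149 and 143 with FGF-2. Both FGF-2 libraries exceeded both serum libraries by a wide margin, with a log2 difference of 1.42 ± 0.28 (SE; limma adjusted p = 1.85e-05), and the authors' deposited table gives 1.43 with an FDR of 7e-05. The neighbouring region over the start itself (chr17:31854727-31855816) was at 134 and 107 with serum and at 159 and 159 with FGF-2. Its groups did not overlap either, but the log2 difference of 0.41 ± 0.27 (SE) was not called (limma adjusted p = 0.344). Beyond the 3′ end of the gene, 64469 bases from the start, a region at chr17:31789362-31791323 had 105 and 81.1 against 151 and 163. Its log2 difference of 0.76 ± 0.27 (SE) passed narrowly (limma adjusted p = 0.0338) and lost its call without serum library 2, without FGF-2 library 1 and without FGF-2 library 2. The authors' deposited table gives it an FDR of 0.0483 but labels it unchanged.

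At Sik3, the start-site region did not differ detectably while regions inside the gene did. The region over the Sik3 start (chr9:46011749-46013998) was at 320 and 270 with serum and at 288 and 341 with FGF-2, overlapping groups with a log2 difference of 0.09 ± 0.25 (SE; limma adjusted p = 0.880). Far into the gene, in intron 4 of 24 of the transcript that the authors' table names, 4 neighbouring regions span 5084 bases (chr9:46172569-46177652), a group picked after its values were seen. Their summed signal was 52.5 and 47.6 with serum and 199 and 175 with FGF-2. The authors called peaks in each library separately, and at each of these 4 regions both FGF-2 libraries had a peak and neither serum library did. The peaks come from the same libraries as the signal and are no separate support. With peaks in the FGF-2 libraries alone, these regions could hardly have been called lower. Of the 4, 3 were called and 1, chr9:46172569-46172937, was not (7.37 and 9.19 against 21.9 and 19; log2 difference 1.21 ± 0.53, SE; limma adjusted p = 0.109).

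The strongest of the 4, at chr9:46174933-46176730 and 162113 bases from the start, had 28.6 and 28.4 with serum and 104 and 87 with FGF-2. The serum libraries matched closely and the log2 difference was 1.70 ± 0.32 (SE; limma adjusted p = 4.69e-06; 1.74 with an FDR of 0.000111 in the authors' deposited table). Its neighbour at chr9:46176899-46177652 had 13.8 and 5.85 against 49.5 and 50, with a log2 difference of 2.33 ± 0.43 (SE; limma adjusted p = 2.47e-06). A weaker region of the same group, chr9:46173169-46173764, went from 2.76 and 4.18 to 23.8 and 19 (2.33 ± 0.65, SE; limma adjusted p = 0.00406), and this call was lost without either FGF-2 library (0.217 and 0.0971). The only lower call at Sik3 was narrow. In intron 1, a small region at chr9:46035636-46035963 had 19.3 and 10.9 with serum and 6.66 and 1 with FGF-2. Its limma adjusted p was 0.0410, and the authors' deposited FDR was 0.227. The value of 1 is the lowest its column holds. Only the serum libraries had a peak there, so a higher call was hardly possible.

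**Figure D3:**
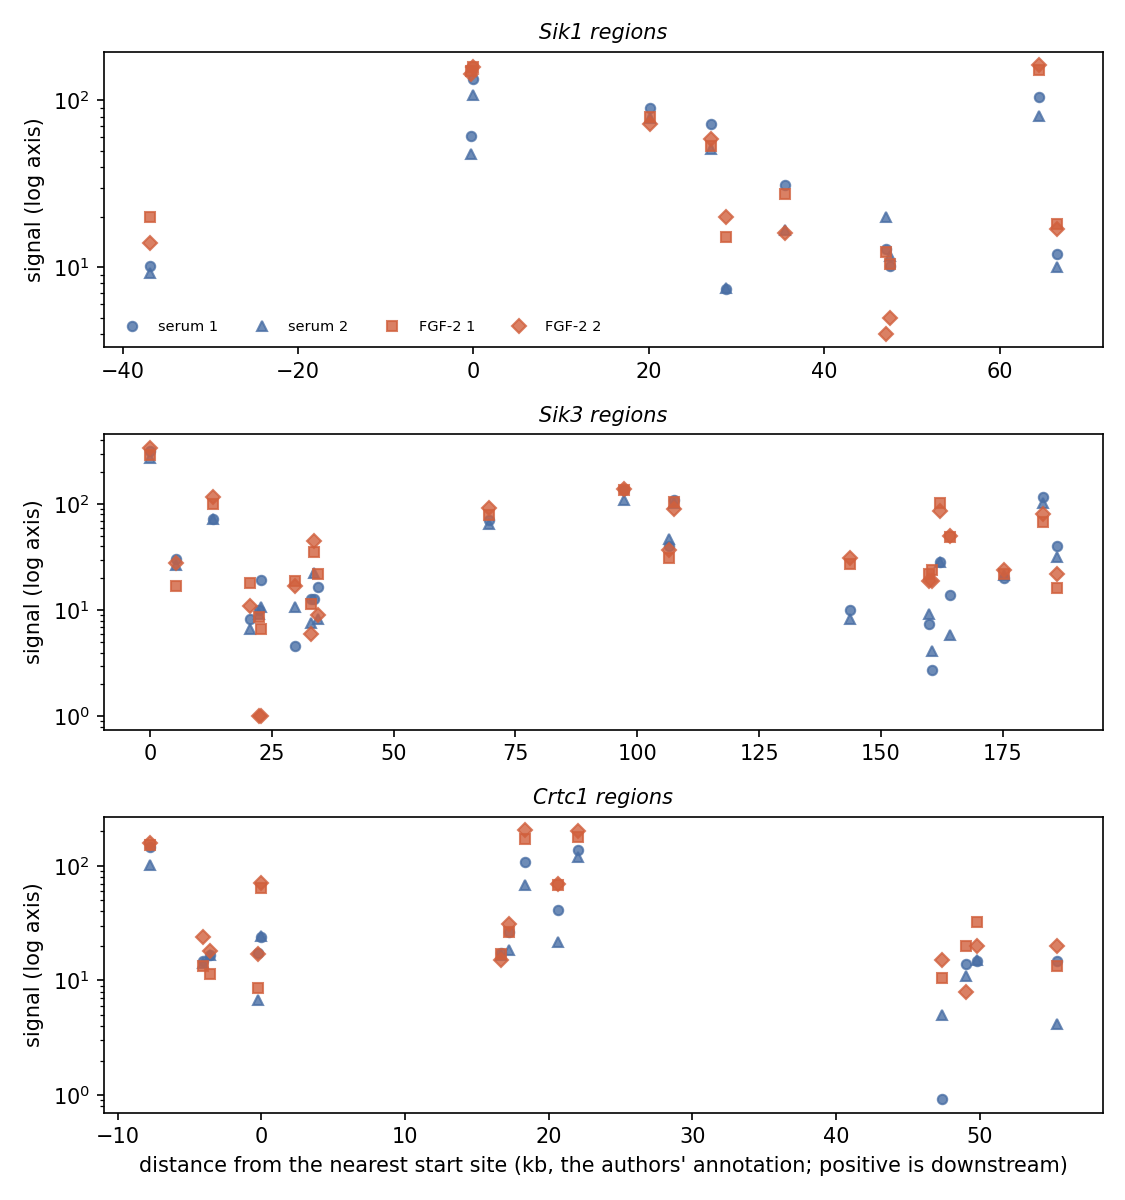
H3K27ac signal (log axis) at every region of Sik1 (11), Sik3 (22) and Crtc1 (14) against distance from the start site in kb, with serum libraries in blue and FGF-2 libraries in red. At Sik3 the groups overlap at the start and separate at the group of regions about 160 kb into the gene.

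Creb1 showed the opposite sign in its 2 readouts: its RNA fell, and its 3 called regions were all higher with FGF-2. The contrast in sign says little, since a lower call was hardly possible at these 3 regions. Both FGF-2 libraries had a peak at each of them, and neither serum library did. These regions are intergenic and far upstream, assigned to Creb1 only because its start is the nearest, and whether they act on Creb1 was not measured. The best supported, at chr1:64374325-64374677 at a distance of -158127 bases, had a signal of 1.84 and 2.51 with serum and 24.7 and 17 with FGF-2 (log2 difference 2.77 ± 0.71, SE; limma adjusted p = 0.00146). At chr1:64354776-64355090 the serum libraries were at 0.92 and 0.84, the lowest value their columns hold, and the FGF-2 libraries at 20.0 and 10, which makes that fold depend on the added constant (3.01 by limma on log2(signal + 1), and 4.09 as log2 fold in the authors' deposited table). Both calls were lost without FGF-2 library 1 (limma adjusted p = 0.217 and 0.407) and without FGF-2 library 2 (0.0611 and 0.0918). The region over the Creb1 start had 564 and 381 with serum and 436 and 472 with FGF-2, the highest mean signal among the 69, with overlapping groups and a log2 difference of -0.03 ± 0.24 (SE; limma adjusted p = 0.962).

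Crtc1 was the only one of the 9 genes with regions whose start-covering region was called. That region (chr8:70439057-70439686), which the printed Crtc1 stretch overlaps, had 23.9 and 24.2 with serum and 63.7 and 71 with FGF-2. The serum libraries were nearly equal and both FGF-2 libraries lay far above them, with a log2 difference of 1.44 ± 0.35 (SE; limma adjusted p = 0.000551; FDR 0.00672 in the authors' deposited table). Without FGF-2 library 2 the limma adjusted p was 0.0533. In intron 1 of 13, the region chr8:70419044-70421199 had 108 and 68.5 against 172 and 204, a log2 difference of 1.12 ± 0.27 (SE; limma adjusted p = 0.000605) that was lost without FGF-2 library 1 (0.0825) or 2 (0.165). The most intense Crtc1 region, chr8:70414008-70417553, had 137 and 120 against 179 and 202 and was not called (0.56 ± 0.26, SE; limma adjusted p = 0.137). A second Crtc1 promoter region, chr8:70439808-70440087, at a distance of -235 bases, had 17.5 and 6.69 with serum and 8.56 and 17 with FGF-2. Its groups overlapped and it was not called (0.14 ± 0.57, SE; limma adjusted p = 0.928).

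At the other starts no call was made. The Gem start region (chr4:11703372-11705380) had 175 and 179 with serum and 186 and 153 with FGF-2, so the largest RNA fold change came with a log2 H3K27ac difference of -0.07 ± 0.26 (SE; limma adjusted p = 0.923). The 2 values come from separate assays on separate libraries, and the difference between them was not tested. Crem had 427 and 338 against 371 and 362 at its main start (-0.05 ± 0.24, SE; limma adjusted p = 0.937). A second Crem start inside the gene had 124 and 117 with serum and 99.9 and 99 with FGF-2, groups apart by a small margin and not called (-0.28). Sik2 stood at 154 and 111 against 104 and 130 (-0.17 ± 0.27, SE; limma adjusted p = 0.780). Crtc3 reached 461 and 323 with serum and 493 and 516 with FGF-2, a log2 difference of 0.38 ± 0.24 (SE; limma adjusted p = 0.315). A Crtc3 region in intron 2 (chr7:80666127-80667380) had 75.5 and 69.4 with serum and 29.5 and 52 with FGF-2. It was narrowly called lower (-0.87 ± 0.32, SE; limma adjusted p = 0.0417), while the authors' deposited FDR was 0.187.

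**Figure D4:**
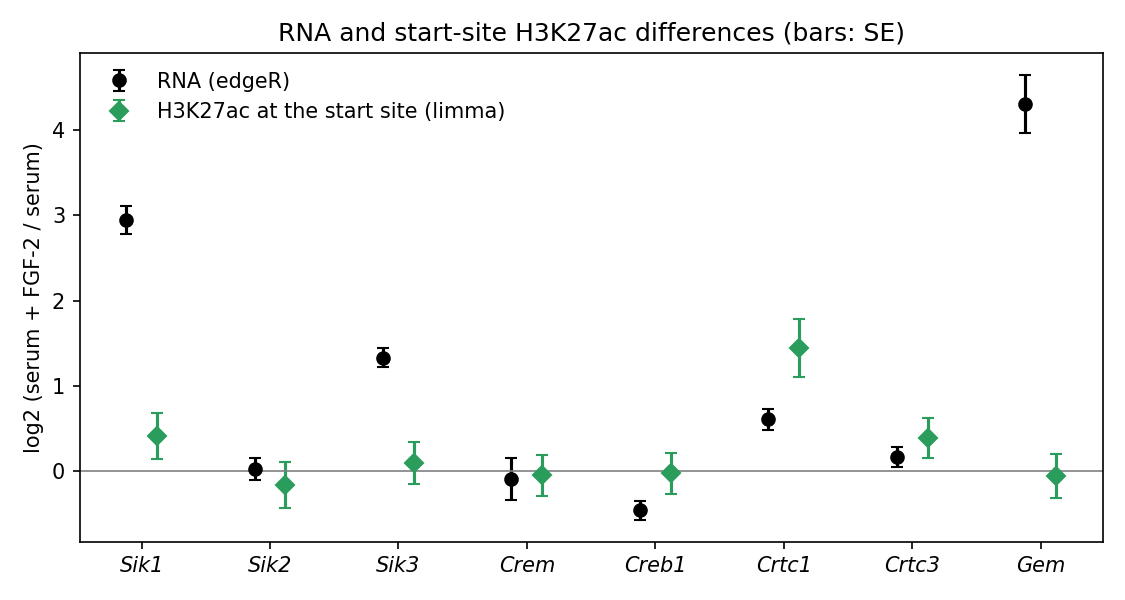
RNA log2 fold change (circles, edgeR) and H3K27ac log2 difference at the region over the start site (diamonds, limma) for the 8 tested genes, with standard errors. Gem, Sik1 and Sik3 have large RNA values beside small start-site values, and for Crtc1 the start-site H3K27ac value is the larger of the 2.

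The peak lists give a coarser view of the same regions. Of the 69, 38 had a peak in all 4 libraries, against 62.7% of all regions, 13 had one in both FGF-2 libraries and in no serum library, against 9.72%, and 5 in both serum libraries and no FGF-2 library, against 5.14%. The FGF-2 libraries had more peaks in all (50317 and 46712, against 44340 and 41975), and the input of serum library 2 was far deeper than the others (110273836 fragments, against 12241177 to 15672630). Their part in these counts was not tested.

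The other genes of the pathway were taken from 6 lists, whose counts have to be read against the 22.1% higher and 24.2% lower of all tested genes. These lists too were chosen with earlier results of these data known. With libraries scaled by their totals alone, which lowers all values together, 4 of the 6 lists had more genes lower than higher. In the list of LKB1 complex members and AMPK-related kinases, the wider family of the salt-inducible kinases, 3 of 9 tested genes rose (Mark1, Mark3 and Brsk1) and 1 fell (Strada), with a median log2 fold change of 0.11. With upper-quartile scaling or library totals the count was 1 higher and 2 lower, with medians of -0.04 and -0.24, and without serum library 1 or 2 it was 1 higher and 0 lower. Mark1, a microtubule-affinity regulating kinase, went from 13.0 ± 1.64 to 30.2 ± 6.33 CPM (log2 1.20 ± 0.18, SE; edgeR adjusted p = 0.000547). Brsk1, a brain-enriched relative, went from 17.5 to 23.8 CPM and Strada, the pseudokinase partner of LKB1, from 23.2 to 17.1 CPM, and both of these calls were lost in several of the alternatives. Stk11, which encodes LKB1 itself, was not called (57.8 ± 3.38 CPM with FGF-2).

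Among kinases that phosphorylate CREB and phosphatases that act on CREB or CRTC proteins, 5 of 17 tested genes rose and 3 fell, with a median of 0.06 (2 and 6 with library totals, median -0.28). Of the 5, Camk2d had means of 0.823 CPM with serum and 3.26 CPM with FGF-2. Its serum libraries alone would not have passed the filter on low counts, so it could hardly have been called lower. Mapkapk2, a kinase downstream of p38, rose from 154 ± 14.3 to 236 ± 14.5 CPM (edgeR adjusted p = 0.00149, and 0.0619 with library totals). Rcan1, an inhibitor of the phosphatase calcineurin, rose from 28.6 ± 2.03 to 64.4 ± 20.2 CPM (edgeR adjusted p = 0.00175). The ribosomal S6 kinase gene Rps6ka2 fell from 8.90 to 5.15 CPM and Camk1, a calcium and calmodulin-dependent kinase, from 29.8 to 21.2 CPM, with calls that were lost without serum library 1 or FGF-2 library 1 for Rps6ka2 and without serum library 2 for Camk1.

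Of the other CREB-related factors and coactivators, 5 of 13 rose and 3 fell (median 0.22), and 2 and 5 did so with library totals (median -0.12). Of the 3, Creb3l1 had means of 4.25 CPM with serum and 1.60 CPM with FGF-2. Its FGF-2 libraries alone would not have passed the filter on low counts, so it could hardly have been called higher. Creb3l2, a membrane-bound factor of the secretory pathway, rose from 125 ± 22.5 to 374 ± 40.3 CPM (log2 1.59 ± 0.15, SE; edgeR adjusted p = 4.65e-05), and Creb5 rose from 6.12 ± 1.39 to 12.9 ± 3.20 CPM. Crebl2 fell from 8.93 ± 2.25 to 3.10 ± 0.295 CPM and Crebrf, which regulates the factor CREB3, from 12.7 ± 5.50 to 5.40 ± 1.06 CPM. Atf1, the closest relative of Creb1 besides Crem, was at 40.5, 40.8 and 41.5 CPM with serum and 58.1, 60.5 and 71.3 CPM with FGF-2. It was called higher, so 2 CREB-family activators were called in opposite directions after TMM scaling. With library totals the 2 higher calls of this list were Creb3l2 and Creb5, and Atf1 was not called.

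Other substrates of the salt-inducible kinases and the 14-3-3 genes gave 2 higher and 3 lower of 10 tested (median 0.14), and 0 and 5 with library totals (median -0.20). The 3 that fell were all class IIa histone deacetylases, repressors that salt-inducible kinases hold in the cytoplasm: Hdac4, Hdac7 and Hdac9. Hdac9 went from 20.4 ± 1.36 to 4.37 ± 1.24 CPM (log2 -2.27 ± 0.20, SE; edgeR adjusted p = 3.21e-05) and Hdac7 from 130 ± 9.13 to 55.1 ± 3.62 CPM (log2 -1.23 ± 0.11, SE; edgeR adjusted p = 3.09e-05). Hdac5 was at 114 to 120 CPM with serum and 111 to 124 CPM with FGF-2, and was not called. The 2 that rose were Ywhab, from 234 ± 11.3 to 355 ± 37.5 CPM, and Ywhah, from 89.0 ± 7.27 to 151 ± 46.5 CPM. With libraries scaled by their totals alone neither was called (edgeR adjusted p = 0.0859 and 0.0727).

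Other genes known as targets of cAMP, CREB and CRTC gave 9 higher and 1 lower of 13 tested, with a median log2 fold change of 1.06. Star, which carries cholesterol into mitochondria for steroid synthesis, was at 97.0, 117 and 281 CPM with serum and at 2012, 1715 and 3162 CPM with FGF-2 (log2 3.80 ± 0.50, SE; edgeR adjusted p = 0.00129). Ptgs2, the inducible cyclooxygenase, was at 0.287, 1.06 and 8.80 CPM with serum and 107, 111 and 281 CPM with FGF-2 (log2 5.90 ± 1.02, SE; edgeR adjusted p = 0.00718). The serum libraries of Ptgs2 alone would not have passed the filter on low counts, so it could hardly have been called lower. The serum libraries of both genes were uneven, with library 3 highest, yet below every FGF-2 library. The size of both changes rests on single libraries: the log2 value of Star was 4.42 without serum library 3, and that of Ptgs2 was 7.94 without serum library 3, 5.22 without serum library 1 and 5.33 without FGF-2 library 3. Dusp1, a phosphatase of MAP kinases, went the other way, from 45.8 ± 7.71 to 11.9 ± 0.338 CPM (log2 -1.94 ± 0.15, SE; edgeR adjusted p = 1.47e-05). Several of these genes, such as Fos and Junb, also respond to growth factors without cAMP, so their counts are not a measure of CREB activity.

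The relatives of Gem and Rgs2 gave 4 higher and 0 lower of 5 tested (median 1.61). Of the 4, Rgs16 was at 0.478, 0.426 and 0.830 CPM with serum and 1.46, 1.41 and 3.08 CPM with FGF-2. Its serum libraries alone would not have passed the filter on low counts, so it could hardly have been called lower. Rrad, another RGK GTPase, was at 7.93, 6.17 and 8.96 CPM with serum and 40.7, 41.7 and 124 CPM with FGF-2 (log2 3.15 ± 0.56, SE; edgeR adjusted p = 0.00582). As for Gem, FGF-2 library 3 was the highest, and without it the log2 fold change of Rrad was 2.44. Rgs4, of the same RGS family as Rgs2, rose from 54.2 ± 9.73 to 159 ± 5.21 CPM (log2 1.55 ± 0.13, SE; edgeR adjusted p = 3.12e-05). Of the 12 genes listed, 5 were at 0 in all 6 libraries.

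**Figure D5:**
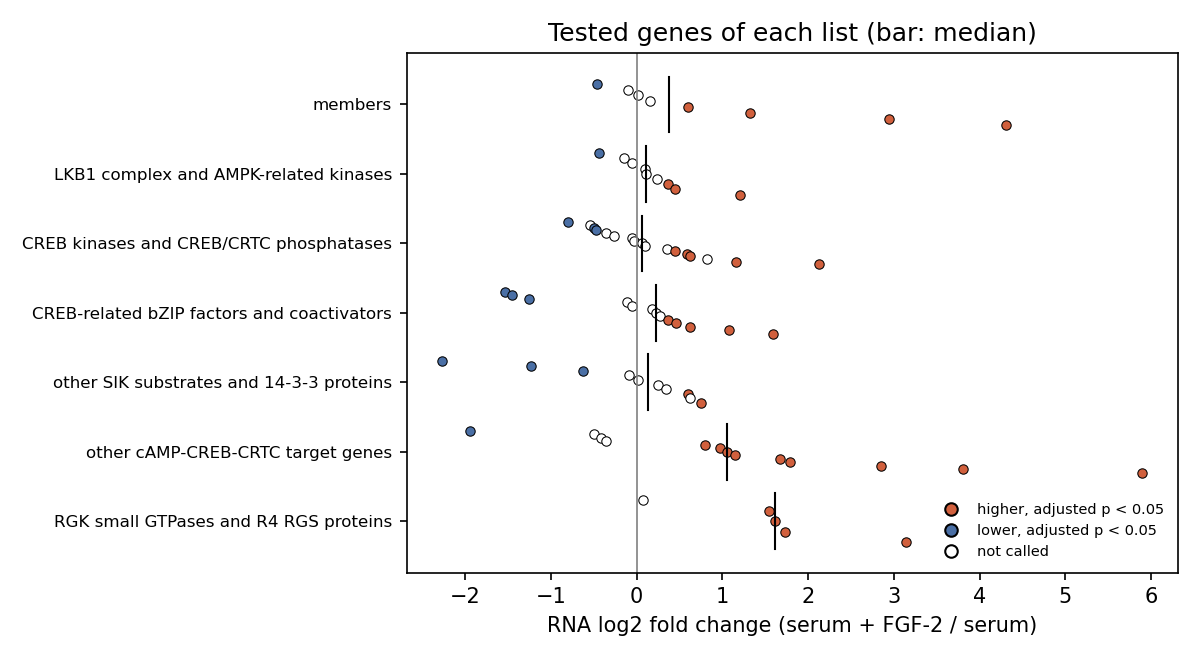
RNA log2 fold change (serum plus FGF-2 over serum, edgeR) of each tested gene in the set of 10 and in the 6 lists, with filled points for calls at an adjusted p under 0.05 and bars at the medians. The targets and the Gem and Rgs2 relatives have medians of 1.06 and 1.61, and the other 4 lists lie between 0.06 and 0.22.

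Some genes followed the members closely over the 6 libraries, as a description with no test. Noc3l and Jmjd6 had Pearson correlations of 0.9995 and 0.9992 with Sik1, Phf23 and Ubtd2 had 0.9995 and 0.9985 with Gem, and Ndufv1 and Poc1b had 0.992 and 0.991 with Crem (log2 of CPM + 0.5). The 6 points share the treatment and the scaling, and with 10374 genes some high values are found for any pattern. Rgs2, at 0 throughout, has no such value.

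Libraries held 5625004 to 12696426 reads counted in genes, and 37.0% to 43.2% of the counted and uncounted reads together lay outside genes or were ambiguous. Of the 24465 genes, 8639 were at 0 in all 6 libraries. Of 8 adrenocortical markers, Nr5a1, the defining factor, was at 74.3 CPM with serum and 71.3 CPM with FGF-2, Nr0b1 was at 0, and the corticotropin receptor Mc2r had 7 reads in all libraries together. Their summed level was 839 to 1083 CPM with serum and 2349 to 3831 CPM with FGF-2, led by Star, while of the 6 tested 1 was higher (Star) and 2 were lower: Cyp11a1, from 124 to 73.7 CPM (edgeR adjusted p = 0.0454), and Fdxr, from 177 to 87.4 CPM (8.85e-05). Of 8 fibroblast and capsule markers 2 were at 0, Col1a2 and Dcn, and the sum, led by Col1a1, was 3033 to 3817 CPM and 2222 to 3088 CPM, with 0 higher and 1 lower (Col3a1) of 4 tested. The medulla markers Th and Dbh were at 0 in all 6 libraries, and Ddc, the only one of that list tested, was lower, from 6.16 to 2.03 CPM (edgeR adjusted p = 0.000901). Endothelial and blood markers, 7 in all with 2 at 0 (Tek and Hbb-bs), summed to 8.60 to 14.6 CPM and 9.27 to 11.8 CPM, with 1 lower (Pecam1) of 2 tested. The part of these levels in the results was not tested.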

How the data were processed

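The authors aligned RNA reads with STAR 2.5.2a and counted them per gene with HTSeq 0.10.0, per the submitters' processing notes, and the deposited count files were used as they stand. They called H3K27ac peaks per library with MACS2 2.2.6 against each library's own input, with a q cutoff of 0.01, per the file headers and notes. The deposited peak lists give fold enrichment and −log10 q, and the authors' deposited region table gives a signal per library with their log2 fold, p-value and FDR per region, and the distance to the nearest start site from ChIPseeker, kept here as a score in bases. Build mm10 is that of the files.

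RNA counts were filtered by filterByExpr, scaled by TMM and tested with edgeR 4.0.16 (robust quasi-likelihood). CPM use TMM-scaled library sizes, and an SE is the size of the log2 change divided by the root of the F statistic. Region signal was tested with limma 3.58.1 on log2(signal + 1), with trend and robust. Peaks were matched to regions at an overlap of 1 base or more. Scripts were checked on simulated data. R 4.3.3 and DESeq2 1.42.0 were also used. P-values measure only the spread between these libraries, which may be technical. Replicate libraries differed by more than counting noise (chi-square per degree of freedom 9.06 to 24.0).

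Members and lists were chosen with earlier results of these data known. Named list genes are up to 2 per direction with the largest change among calls, a mean of at least 5 CPM and groups that do not overlap. Added after their values were seen were Hdac4, Hdac5, Stk11, Mark3, Atf1, Fos, Junb, Rgs16, Camk2d, Creb3l1 and the marker genes named. Named regions are those nearest the start, with the highest mean signal, or at the authors' FDR of 0.05. Likewise added were the lower-called Sik3 and Crtc3 regions, the Sik3 region of the group of 4 that was not called, the second Crem start and the second Crtc1 promoter region. Likeness used the 2 most correlated genes for Sik1, Crem and Gem. The alternatives were other scalings, filters, tools, pseudocounts, a replicate block and leaving out each library. The summed level of the medulla marker list is not reported here.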

Additional observations from a re-analysis of the deposited data

How the results depend on the processing

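The 4 higher and 1 lower RNA calls were the same in number with DESeq2, limma-voom, RLE and upper-quartile scaling, no filter, the replicate block and each library left out. With library totals they were 3 and 1, and with a minimum log2 change of 1 they were 3 and 0. Over all genes, library totals gave 1035 higher and 4675 lower calls, against 2295 and 2512. For single genes 341 alternatives kept sign and call, 17 lost the call and 6 changed sign: Sik2 (-0.12 with upper-quartile scaling, -0.32 with library totals, -0.048 to 0.11 with one library left out, below 0 without serum 3 or FGF-2 1), Crem (-0.26 to 0.047, above 0 without FGF-2 1) and Crtc3 (-0.18 with library totals). Among the lists, library totals gave 1 higher and 2 lower for LKB1-related kinases, 2 and 6 for CREB kinases, 2 and 5 for CREB-related factors, 0 and 5 for SIK substrates and 8 and 2 for targets. LKB1-related kinases also gave 1 and 2 with upper-quartile scaling, 3 and 0 with DESeq2 or without FGF-2 1, 1 and 0 without serum 1 or 2, and 4 and 0 without FGF-2 3. SIK substrates gave 4 and 3 with DESeq2 or no filter, and targets 9 and 2 with upper-quartile scaling and 8 and 2 without serum 2.

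Higher member regions numbered 13, and 3 to 15 with one library left out, with the low values 4 without FGF-2 1 and 3 without FGF-2 2. Lower regions numbered 2, and 0 to 1 with one library left out, 1 at a mean signal of at least 10, and 0 by the authors' FDR. The replicate block gave 10 higher and 0 lower regions, and the Sik1 region 64469 bases from its start was then not called (limma adjusted p = 0.137). Same-numbered libraries were not treated as pairs: their deviations correlated at -0.14, 0.07 and 0.42 for RNA, where serum 1 and 2 correlated better with FGF-2 2 (0.37) and 1 (0.50), and at -0.22 for H3K27ac. No other pairing was run for RNA, and the crossed pairing of H3K27ac libraries, chosen after seeing the data, gave 15 higher and 3 lower. The Sik1 region just upstream of the start and the Sik3 regions at 162113 and 164079 bases kept their calls in each alternative run. Start regions that changed sign with one library left out ranged from -0.40 to 0.062 (Sik2, without serum 1), -0.028 to 0.21 (Sik3, without serum 2 or FGF-2 2), -0.22 to 0.12 (Crem, without serum 1), -0.31 to 0.25 (Creb1, without serum 1 or FGF-2 1), -0.091 to 0.37 (Crtc2, without serum 2) and -0.21 to 0.075 (Gem, without FGF-2 2). With peaks at −log10 q of at least 5, regions with serum-only peaks numbered 2, not 5. The core gave 3 promoters where the full element gave 0. The causes were not tested. A count test on reads recovered from the region table was not run. With 2 libraries per group, leaving 1 out assumes that the lone library varies like the other group. With log2(signal + 10), the called regions of lowest signal kept their calls at smaller log2 values, 1.17 and 1.33 at Creb1 and 1.22 and 1.62 at Sik3. RNA depth sets the precision of low genes such as Crem, with 22 to 48 reads per library.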
